A study of Mus musculus with 5 samples.

Results

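Negative feedback on the ERK pathway was examined through 10 genes, the dual-specificity phosphatases Dusp1, Dusp4, Dusp5, Dusp6 and Dusp10, the Sprouty genes Spry1, Spry2 and Spry4, and the Sprouty-related genes Spred1 and Spred2. They were chosen by gene symbol, with differences between these same clones already known, the low Dusp6 of clone 11B among them, so the values below are descriptions and not tests. The 10 genes had 26 probe sets and were 10 of 18193 genes named on the array. RNA came from 5 cloned lines of cardiac progenitor cells, called 1D, 11B, 20B, 30 and 42, derived from the left ventricle of mice of strain C67BL/6, as the labels spell it, aged 5 to 6 months. All 5 clones were selected with an antibody to Sca-1, labelled c-kit+, cloned with rings and subcloned by dilution, and the labels give no treatment or genotype that sets them apart. Each group was thus 1 clone on 1 Affymetrix array, with no replicate, so no difference between clones could be tested.

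ERK is the last kinase of a cascade that runs from growth factor receptors through Ras, Raf and MEK, and it drives proliferation and the transcription of immediate early genes. Several of those transcripts encode its own brakes. Dual-specificity phosphatases remove the activating phosphates from MAP kinases, in the nucleus or the cytoplasm depending on the member. Sprouty proteins block the signal between the receptor and Raf, and Spred proteins bring the Ras inactivator neurofibromin to the membrane. In mice, loss of Dusp6 has been reported to raise the number of cardiomyocytes.

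The deposited values were ratios. Every probe set had apparently been scaled to its middle clone or, where the signal was weak, to a floor, so the values show differences between clones and no level of expression. A ratio of 1 therefore means the middle clone of a probe set or the floor. A probe set was called measured if its middle clone was at exactly 1 or at least one clone was above 1, provided that its highest and lowest clones were more than 0.05 log2 units apart. A gene's value was the mean log2 ratio of its measured probe sets, and a difference of 1 log2 unit is 2-fold. Over the whole array, 9435 genes were measured, 6388 of them on 1 probe set. Where a gene had several probe sets, their clone values differed by a standard deviation of 0.42 log2 units, or 0.30 for a single probe set, and the 18 hybridization control probe sets had a standard deviation of 0.08. RNA controls were unequal: the 5' over 3' signal of Actb was 0.597 in clone 11B and 0.743 in clone 30, against 1.00 to 1.08 in the other clones, and the 18S signals were 0.411 to 0.555 in clone 11B. Of the markers named in the labels, Kit was measured on 1 probe set, 1415900_a_at. It passed through clone 20B alone, at 1.183 against 0.991 to 1.002 in the other clones. Its other probe set, 1452514_a_at, was flat below the floor at 0.614 to 0.618. Pou5f1 was not measured, and Ly6a, the gene of Sca-1, had no probe set of its own among those used. Among markers of other cell types, none of 4 endothelial and none of 3 leukocyte genes were measured. For cardiomyocytes 2 of 5 were, for mast cells 2 of 3, for smooth muscle 2 of 3 and for fibroblasts 2 of 4. Some passed through 1 clone alone: Mcpt8 through clone 20B, Tpsb2 and Myh11 through clone 1D, and Myh6 and Tnnt2 through clone 42. These counts therefore do not show which cell types were present.

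Across the feedback genes, 3 stood out, each in a different clone. Dusp6 was far lower in clone 11B, Dusp1 was highest in clone 30, and Spry4 was lowest in clone 42. The other measured genes, Dusp10, Spry2, Spred1 and Spred2, ranged over less than 0.30 log2 units, the spread of a single probe set. Dusp4, Dusp5 and Spry1 were not measured.

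**Figure D1:**
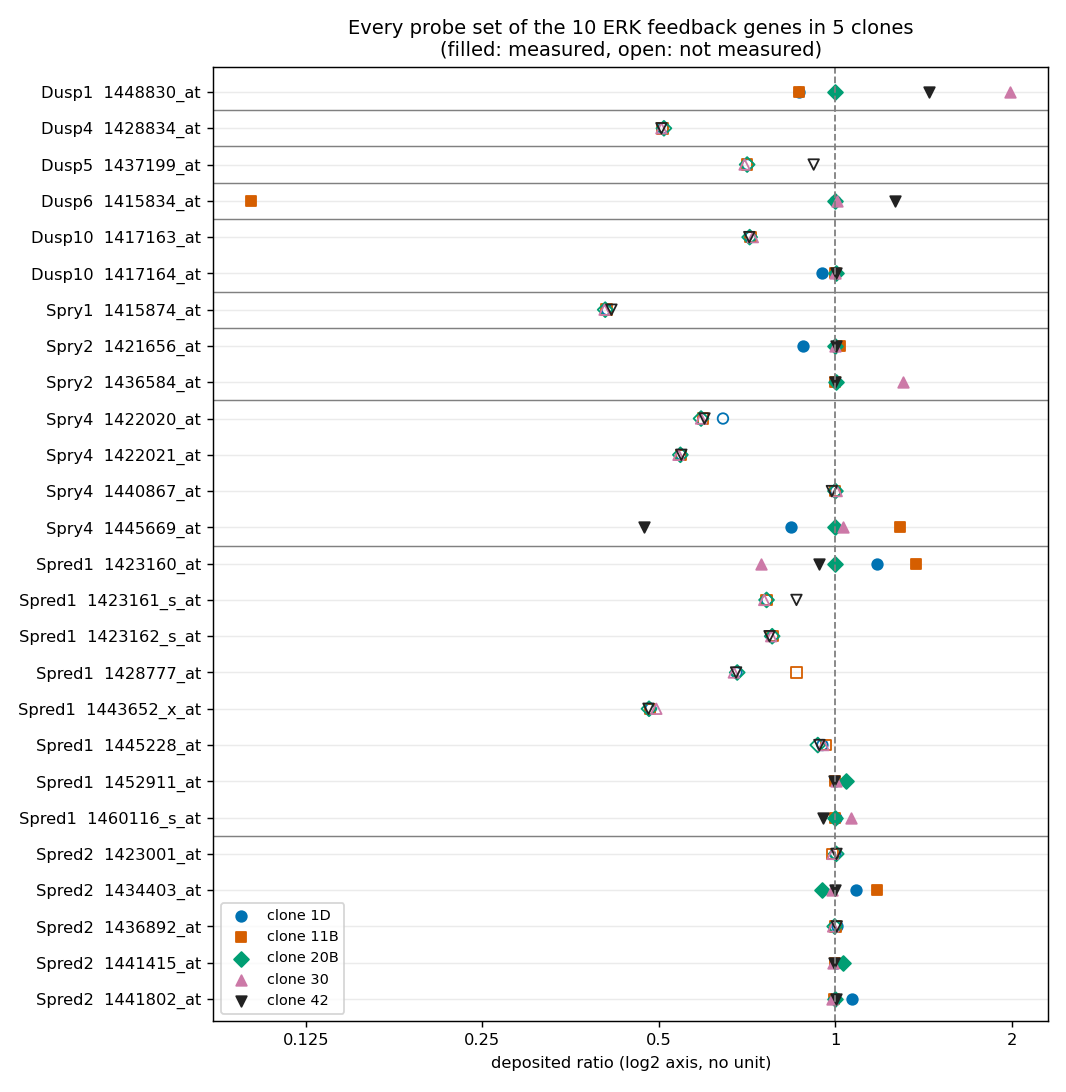
Deposited ratio (x axis, log2 scale, no unit) of each of the 26 probe sets of the 10 ERK feedback genes (y axis) in the 5 clones, 1 symbol per clone, filled where the probe set was measured. Most clones lie at or just beside 1 or together below it, and the widest separations are those of Dusp6 in clone 11B (0.101), Dusp1 in clone 30 (1.988) and Spry4 probe set 1445669_at in clone 42 (0.472).

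Of the 26 probe sets, 12 were measured, 11 lay below 1 in every clone and 3 were divided by their own median but flat. Passing this filter depends on having a clone that differs, so the 7 measured genes are not a sample of all 10. Among those 7, 3 spanned at least 1 log2 unit, against 13.0% of all measured genes, and the same 3 were the ones that reached 0.5 log2 units, against 41.5%. With every probe set averaged, which gives all 10 genes a value, 2 of 10 reached 1 log2 unit, Dusp6 and Dusp1, against 3.74% of 18193 genes. The median range of the 7 was 0.28 log2 units, and that of all measured genes was 0.41. Because the genes were picked with the Dusp6 difference known, these shares describe the set and support nothing further.

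**Figure D2:**
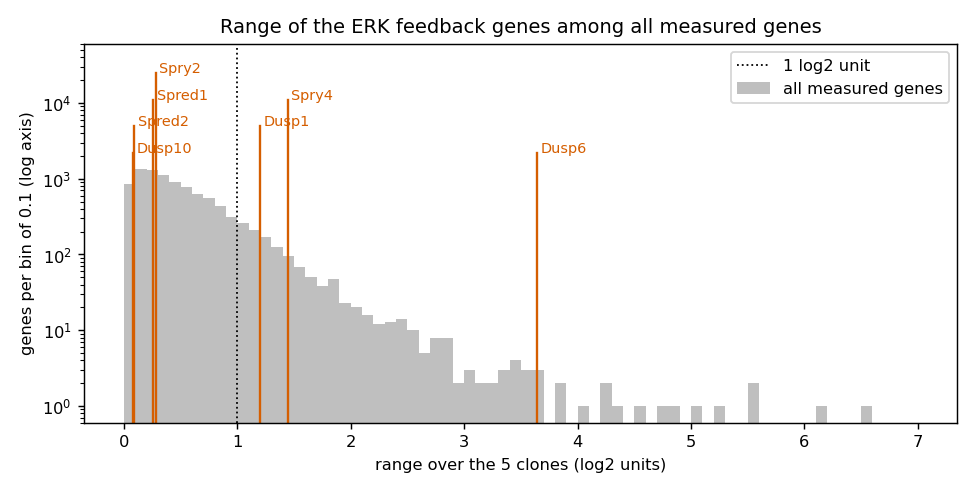
Number of measured genes (y axis, log scale) by range over the 5 clones (x axis, log2 units, bins of 0.1), with the 7 measured ERK feedback genes marked by vertical lines whose height has no meaning. Dusp6 (3.64), Spry4 (1.45) and Dusp1 (1.20) lie to the right of the dotted line at 1 log2 unit, and Spry2 (0.28), Spred1 (0.26), Spred2 (0.09) and Dusp10 (0.08) lie to its left.

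Dusp6 encodes the cytoplasmic phosphatase that acts selectively on ERK, and it showed the widest difference. On its single probe set, 1415834_at, the ratio was 0.101 in clone 11B, against 0.997 in clone 1D, 1.000 in clone 20B, 1.005 in clone 30 and 1.263 in clone 42. Clone 11B lay 3.31 log2 units below the median of the other clones, a 9.93-fold difference, and 3.30 below the nearest of them. The range of 3.64 log2 units exceeded that of 99.8% of measured genes. Dusp6 was the only measured feedback gene that set a clone at least 1 log2 unit below all others, a gap seen for 1.27% of measured genes, and none lay that far above all others, against 1.59%. Without clone 11B the range of Dusp6 was 0.34 log2 units. In that remainder clone 42 was highest, but its distance of 0.33 log2 units to clone 30 was smaller than 0.42, the spread of a difference between probe sets.

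Some limits belong beside the Dusp6 value. The ratios of clones 1D, 20B and 30 recurred together, unchanged, on 12 other probe sets. These clones may share a level there, so their closeness may be no measurement. The size of the difference from clone 11B is therefore uncertain. No other probe set of Dusp6 could check it. Clone 11B also had the low Actb 5' to 3' ratio of 0.597 and the low 18S signals given above, and their part in the Dusp6 value was not tested. The corresponding Gapdh ratio was 0.924 in clone 11B, against 1.00 to 1.16 in the other clones. Whether a part of the cells or every cell of clone 11B held less Dusp6 RNA cannot be told apart in RNA from a whole culture.

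Dusp1 encodes a nuclear phosphatase of p38, JNK and ERK and is itself an immediate early gene. Its probe set 1448830_at had a ratio of 1.988 in clone 30, against 1.443 in clone 42, 1.000 in clone 20B, 0.868 in clone 1D and 0.866 in clone 11B. Clone 30 exceeded the median of the others by 1.09 log2 units, a 2.13-fold difference, and the range of 1.20 log2 units exceeded that of 91.9% of measured genes. Clones 30 and 42 differed by 0.46 log2 units and clones 42 and 20B by 0.53. Both were little beyond the spread of 0.42, which is only 1 standard deviation of a difference. The steps from clone 20B to clone 1D and from clone 1D to clone 11B lay within that spread. No 3 clones shared a level on this probe set. The order of the clones looked graded, unlike that of Dusp6, but its single steps are uncertain. In clone 11B, where Dusp6 was lowest, Dusp1 was level with clone 1D. Without clone 30 the range was 0.74 log2 units. Clone 30 had an Actb 5' to 3' ratio of 0.743, and spiked poly-A controls with a median of 0.33 log2 units. Both measured fibroblast genes lay above 0 there, Col1a1 at 0.33 and Pdgfra at 0.36, while Col1a2 and Dcn were not measured. Their probe sets disagreed in clone 30: Col1a1 had 1.581 on 1423669_at and 1.000 on 1455494_at. Pdgfra had 1.633 on 1421917_at, 1.308 on 1438946_at and 0.996 on 1421916_at. Of the smooth muscle genes, Acta2 was highest in clone 30 at 0.20, Myh11 lay at 0.004 there and Cnn1 was not measured. The part of any of these in the Dusp1 value of clone 30 was not tested.

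The sequences just upstream of these genes are shown because Dusp6 and Dusp1, the phosphatases with ranges of at least 1 log2 unit, differed in different clones. Each is the 250 bases before the annotated start, 5' to 3' on the strand of the gene, from RefSeq on GRCm38.p6. The Dusp6 window is chr10:99262981-99263230 on the plus strand and the Dusp1 window is chr17:26508473-26508722 on the minus strand. Capitals mark the matches to 6 motifs searched on both strands.
Dusp6: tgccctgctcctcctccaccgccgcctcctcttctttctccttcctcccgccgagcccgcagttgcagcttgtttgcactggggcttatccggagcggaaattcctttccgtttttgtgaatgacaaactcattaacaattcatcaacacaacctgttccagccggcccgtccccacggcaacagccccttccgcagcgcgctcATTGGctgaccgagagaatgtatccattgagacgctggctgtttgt
Dusp1: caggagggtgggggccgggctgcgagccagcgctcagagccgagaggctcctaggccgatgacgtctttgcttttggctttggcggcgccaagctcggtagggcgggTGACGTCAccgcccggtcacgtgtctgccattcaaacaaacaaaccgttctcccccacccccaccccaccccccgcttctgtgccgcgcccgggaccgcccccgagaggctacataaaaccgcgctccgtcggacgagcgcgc
The Dusp1 window held 1 full cyclic AMP response element (CRE, TGACGTCA), starting 143 bases before the gene, which 1.55% of 32851 windows of the same length held. The Dusp6 window held 1 CCAAT box, read here as ATTGG from the other strand and starting 46 bases before the gene, which 33.8% of windows held. Neither held an AP-1 site (TGANTCA, in 6.75% of windows), an ETS core with 2 leading C bases (CCGGAA, 12.0%), a TATA box (TATAAA, 12.4%) or a CArG box, the element bound by serum response factor (1.47%). No match overlapped another. Of the feedback genes, 8 had a window in the table, with none for Dusp4 and Spry4. Among these 8, the CArG box was found only upstream of Dusp5, at 2 positions, the CRE only upstream of Dusp1, and the CCAAT box upstream of Dusp6, Dusp10 and Spry1. A match is only a run of letters and shows no binding, and a window without one says nothing about the factor.

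The other phosphatases gave little to read. Dusp4, a nuclear phosphatase of ERK, JNK and p38 that ERK activity induces, had ratios of 0.505 to 0.510 on probe set 1428834_at, all 5 clones within 0.02 log2 units. Dusp5, a nuclear phosphatase that acts selectively on ERK, had a ratio of 0.918 in clone 42, against 0.700 to 0.708 in the other clones, on probe set 1437199_at. That is a range of 0.39 log2 units below the floor, where a difference cannot be read as one of expression. Dusp10, which acts on p38 and JNK rather than ERK, ran from 0.950 in clone 1D to 1.004 in clones 20B and 42 on probe set 1417164_at. Its other probe set, 1417163_at, was below the floor at 0.713 to 0.723. A place at the floor does not show that a transcript was absent.

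Spry4 was the Sprouty gene with the widest range, and it rested on 1 of 4 probe sets. On probe set 1445669_at the ratio was 0.472 in clone 42, against 0.839 in clone 1D, 1.286 in clone 11B, 1.000 in clone 20B and 1.031 in clone 30. Clone 42 lay 1.11 log2 units below the median of the others, a 2.15-fold difference, and 0.83 below clone 1D, the nearest. No 3 clones shared a level on this probe set, and the range of 1.45 log2 units exceeded that of 95.6% of measured genes. The remaining probe sets did not show the difference. Probe set 1440867_at was divided by its own median and nearly flat, from 0.986 in clone 42 to 1.005 in clone 30. Probe sets 1422020_at and 1422021_at lay below the floor, at 0.590 to 0.643 and 0.540 to 0.546. With all 4 averaged, the deviation in clone 42 became -0.27 log2 units, and with the flat probe set added to the measured one it became -0.56. Fibroblast markers lay on opposite sides in clone 42, with Col1a1 at -2.13 and Pdgfra at 0.70 as log2 ratios, while Col1a2 and Dcn were not measured. The cardiomyocyte gene Myh6 was highest in clone 42 at 0.47, on probe set 1448826_at, which counted as measured only through that clone. Its other probe set, 1417729_at, was flat at 0.998 to 1.007, and Tnnt2 lay at -0.05 in clone 42. The spiked poly-A controls had a median of -0.40 log2 units in clone 42, the farthest from 0 of the 5 clones, and its 18S signals were 0.651 to 0.955. The part of any of these in the Spry4 value was not tested.

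The 2 probe sets of Spry2, which like Spry4 is induced by growth factors and dampens signalling from their receptors, did not name the same clone. Probe set 1436584_at had a ratio of 1.302 in clone 30, against 0.998 to 1.003 in the others, whose ratios recurred together on 16 other probe sets. Probe set 1421656_at was lowest in clone 1D at 0.881, against 0.997 to 1.018 in the others, and was 1.000 in clone 30. Averaged, Spry2 in clone 30 exceeded the median of the others by 0.19 log2 units, within the spread of a probe set. Spry1, the remaining Sprouty gene of the set, had ratios of 0.404 to 0.415 on probe set 1415874_at, below the floor in every clone.

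Spred1 was covered by 8 probe sets, of which 3 were measured, and they disagreed. On 1423160_at the ratios were spread widely, 1.371 in clone 11B, 1.176 in clone 1D, 1.000 in clone 20B, 0.939 in clone 42 and 0.748 in clone 30, a range of 0.87 log2 units with no shared level. On 1460116_s_at, which is marked for cross-hybridization, clone 30 was instead highest at 1.063 and clone 42 lowest at 0.954. Probe set 1452911_at was nearly level, from 0.995 in clone 42 to 1.043 in clone 20B. The mean over the 3 ran from 0.15 log2 units in clone 11B to -0.11 in clone 30. A further probe set, 1428777_at, had 0.859 in clone 11B against 0.671 to 0.680 in the others, but all below the floor. Spred2 had 5 probe sets, 3 of them measured, and its mean ranged over 0.09 log2 units. The widest of them, 1434403_at, had 1.175 in clone 11B and 1.082 in clone 1D, against 0.948 to 1.000 in the others, while 1441802_at was highest in clone 1D at 1.069 and 1441415_at in clone 20B at 1.032.

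**Figure D3:**
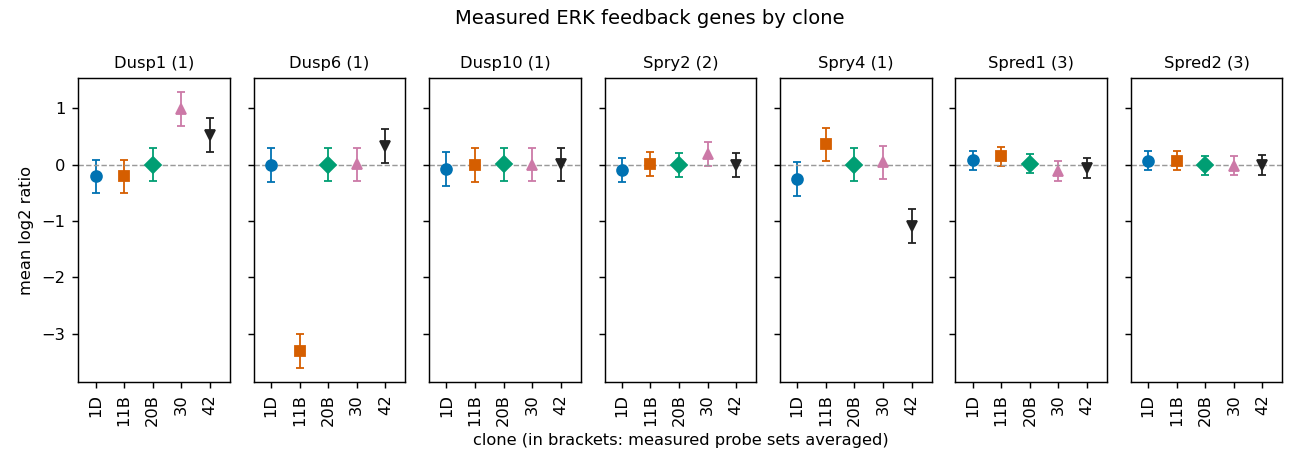
Mean log2 ratio (y axis) of the 7 measured ERK feedback genes in each of the 5 clones (x axis), with the number of measured probe sets beside each symbol. Bars on each side span 0.30 log2 units, the spread of a single probe set, divided by the square root of the number averaged, and cover neither culture nor RNA preparation. The bars of Dusp6 in clone 11B and of Spry4 in clone 42 overlap those of no other clone, whereas those of Dusp1 in clone 30, its highest, overlap those in clone 42.

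Taken by clone, the feedback genes lay on both sides of the other clones. In clone 1D, 2 of the 7 measured genes lay above the median of the other clones, against 51.6% of all measured genes, and in clone 11B 4 did, against 47.7%. In clone 20B 3 did, against 52.8%, in clone 30 4 did, against 42.4%, and in clone 42 3 did, against 52.6%. The median deviation of the 7 was -0.08 log2 units in clone 1D, 0.01 in clone 11B, -0.001 in clone 20B, 0.009 in clone 30 and -0.005 in clone 42. The same median over all measured genes was 0.001, -0.002, 0.002, -0.01 and 0.004 in those clones. In clone 11B, Dusp6 lay at -3.31 relative to the others, whereas Spry4 lay at 0.49, Spred1 at 0.17 and Spred2 at 0.08. Clone 30 held Dusp1 at 1.09 and Spry2 at 0.19, with Spred1 at -0.16, and clone 42 held Dusp1 at 0.63 and Dusp6 at 0.34, with Spry4 at -1.11.

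Genes whose pattern was most like each of these 3 were sought among all measured genes, by the root mean square difference over the 5 clones after centring each gene on its median. For Dusp6 they were Rbbp4, a histone-binding chromatin protein, at 0.56 log2 units, Frg1 at 0.58 and Hyou1, a chaperone of the endoplasmic reticulum, at 0.76. Rbbp4 was -2.37 in clone 11B, against -0.72 to 0.20 in the other clones, and Frg1 was -2.28 there. For Dusp1 the closest were Paip1, a partner of poly(A)-binding protein, at 0.09, Pgls, an enzyme of the pentose phosphate pathway, at 0.11 and Srp68, a subunit of the signal recognition particle, at 0.12. For Spry4 they were Lamp2, a lysosomal membrane protein, at 0.11, Olfm2 at 0.14 and Rhpn2 at 0.14. These distances cover 5 clones on 1 array each and say nothing of shared function or control.

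The rest of the pathway was followed through 51 further genes in lists. Of these, 44 had a probe set of their own, 38 were measured, and 8 spanned at least 1 log2 unit, against the 13.0% of all measured genes given above. The median range of the 38 was 0.58 log2 units.

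Among the remaining phosphatases and Sprouty relatives, 1 of 6 measured genes reached 1 log2 unit. This was Dusp9, a cytoplasmic phosphatase that, like Dusp6, prefers ERK, with a ratio of 1.722 in clone 42, against 1.082 in clone 11B, 1.000 in clone 1D, 0.983 in clone 30 and 0.715 in clone 20B. It rests on 1433845_x_at, marked for cross-hybridization, and the probe set 1454737_at was flat at 0.996 to 1.016. Dusp16 was highest in clone 11B, at 0.60 as a log2 ratio, and Dusp7 too, at 0.24, so neither shared the low value of Dusp6 there. The Dusp16 value came from 1440615_at alone, at 1.511. Its probe set 1418401_a_at lay below the floor, with 0.709 in clone 11B and its highest value, 0.761, in clone 42. The Dusp7 value came from 1427416_x_at, marked for cross-hybridization, at 1.398, while 1460393_a_at had 0.998 in clone 11B. Dusp8 lay at -0.11 in clone 11B and was highest in clone 20B at 0.47. Its 3 measured probe sets disagreed in clone 20B, at 2.621, 1.016 and 1.005. Spry3 was highest in clone 1D at 0.52, the widest range of the 2 Sprouty relatives at 0.58.

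Further brakes upstream of ERK included 2 of 5 measured genes with such a range. Lrig1, which promotes the degradation of receptors, was lowest in clone 30 at a log2 ratio of -1.34 and highest in clones 11B and 1D at 0.47 and 0.46, on 1 probe set marked for cross-hybridization. Rasa1, which switches Ras off, was lowest in clone 11B at -0.65 and highest in clone 1D at 0.60, and its 3 measured probe sets put these clones at the same ends. On the widest of them, 1426478_at, Rasa1 had 0.464 in clone 11B and 2.023 in clone 1D.

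Receptors and adaptors supplied 3 more. Fgfr2, a fibroblast growth factor receptor, had the widest range of the receptors, 1.70 log2 units, with clone 42 at 1.17 and clone 1D at -0.53. Its measured probe sets disagreed, since 1420847_a_at was highest in clone 42 at 3.954 and 1433489_s_at was highest in clone 11B at 1.470. Grb2, the adaptor that carries the exchange factor Sos to receptors, was highest in clone 42 at a log2 ratio of 0.64 and lowest in clone 11B at -0.44. That rests on probe set 1449111_a_at, while 1418508_a_at was flat below the floor at 0.799 to 0.803. Gab1, a docking protein, was lowest in clone 30 at -1.02, on 1 of its 3 probe sets, while the other two lay below the floor. The suffix _a_at of 1 Fgfr2 probe set and of the measured ones of Grb2 and Gab1 marks several transcripts of a gene, and the suffix _s_at of the other Fgfr2 probe set marks possible cross-hybridization. In the kinase cascade none of 5 measured genes reached 1 log2 unit. Map2k2, the gene of the ERK kinase MEK2, had the widest range there, 0.85, with clone 30 at 0.56, and its probe set 1415974_at had 2.185 in clone 30 and 1.356 in clone 42, against 0.747 to 1.000 in the others. Its other measured probe set, 1460636_at, did not show this, with 1.000 in clone 30, 0.796 in clone 1D and 0.996 to 1.001 in the other clones.

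Transcripts known to follow ERK activity were compared with the feedback genes, and 2 of 11 measured spanned at least 1 log2 unit. Egr1, an immediate early transcription factor, was lowest in clone 11B, like Dusp6, with a ratio of 0.530 there, against 0.989 in clone 30, 1.000 in clone 1D, 1.003 in clone 20B and 1.174 in clone 42. Its ratios in clones 1D, 20B and 30 recurred together on 883 other probe sets. Its difference of -0.92 log2 units from the median of the others is therefore uncertain in size. Fos was also lowest in clone 11B, at a ratio of 0.679, against 0.986 to 1.258 in the others. Etv4, an ETS factor, had its lowest mean there, at a log2 ratio of -0.24, but clone 20B lay close at -0.14. That step lay within the spread of 0.42. Of the 2 measured probe sets of Etv4, 1423232_at was lowest in clone 11B. The other, 1443381_at, had 1.000 in clone 11B and was lowest in clone 1D. In all, 3 of the 11 had their lowest value in clone 11B, against 17.7% of all measured genes. Clone 30 was lowest for 4 of them, against 27.5%, and clone 42 was highest for 5, against 22.5%. Clone 11B was also lowest for 4 of 7 adaptors and exchange factors, 2 of 4 receptors and 1 of 5 further brakes. It was lowest for none of the other measured phosphatases, Sprouty relatives or kinase cascade genes. Other clones stood at the end of a list too. Clone 42 was highest for 5 of the 7 adaptors and exchange factors, and clone 30 was lowest for 2 of 2 Sprouty relatives. Myc, Phlda1, Ccnd1 and Epha2 lay above 0 in clone 11B, at 0.20, 0.18, 0.09 and 0.20, and the median deviation of the 11 there was -0.03. Fosl1, an AP-1 subunit, was lowest in clone 30 at -0.60 and highest in clone 42 at 0.42. Its probe set 1417488_at was highest in clone 42 at 1.508, but 1417487_at in clone 20B at 1.242. Etv5 was highest in clone 20B at 0.84, on probe set 1420998_at alone. Its probe sets 1428142_at and 1450082_s_at lay below the floor, with 0.943 and 0.525 in clone 20B. The Actb 5' to 3' ratio of 0.597 in clone 11B also stands beside Egr1 and Fos, and its part in them was not tested.

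**Figure D4:**
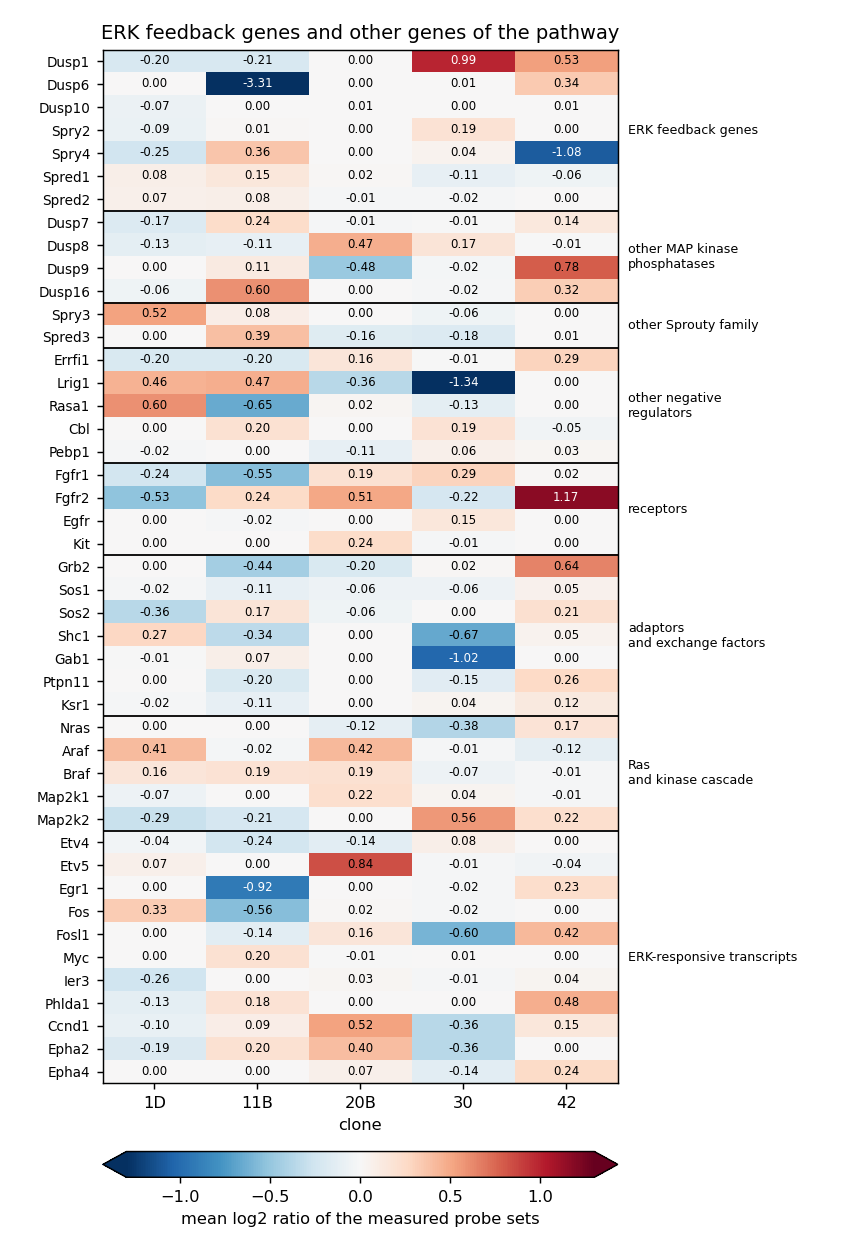
Mean log2 ratio of the measured probe sets of 7 ERK feedback genes and 38 other genes of the pathway (rows, grouped by role) in the 5 clones (columns), with each value printed and colours saturating at the ends of the scale. Dusp6 in clone 11B (-3.31) is the lowest value of the map, and Egr1 (-0.92) and Fos (-0.56) are lowest in the same clone, while Spry4, Dusp16 and Spred3 are highest there.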

How the data were processed

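RNA of 5 clones was hybridized to 1 Affymetrix array each. The submitters' processing notes name RMA and GCRMA, with neither version nor role. The deposited values were read as ratios from the values themselves: of 45101 probe sets, 18926 (42.0%) had a median of exactly 1 over the arrays and none had one above 1. The authors' division by this median or a floor is stated in no source used here. Probe sets with 1 gene symbol (34945) were kept, with symbols updated through a RefSeq table of GRCm38.p6, and 64 array controls were left out. Depth in reads does not apply, and the number of arrays limits the precision.

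Log2 ratios of measured probe sets were averaged per gene (Python 3.11.15, pandas 2.3.3, numpy 2.4.6). The calculation was tested on simulated data whose planted differences exceeded 1 log2 unit and whose noise was below the spread of a probe set. That run checks the arithmetic and not the calls in these data. Clones were compared by range, by deviation from the median of the other 4 and by the gap to the nearest clone, at sizes of 1 and 0.5 log2 units. A tie meant at least 3 clones within 0.02 log2 units. No test was possible with 1 array per clone. The spread came from 6681 pairs of probe sets of 1 gene. The feedback genes and pathway lists were chosen with earlier results of these data known. All 10 genes were named, as were pathway genes with a range of at least 1 log2 unit, otherwise the widest of each list, and the 3 genes nearest in pattern. Further genes (Dusp7, Dusp8, Dusp16, Fos, Etv4, Etv5, Myc, Phlda1, Ccnd1, Epha2, Spred3) were chosen after their values were seen. Alternatives changed the choice of probe sets (suffixes _x_at, _s_at and _a_at were dropped in one), the floor, the scaling and the clones used.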

Additional observations from a re-analysis of the deposited data

How the results depend on the processing

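The count of 3 feedback genes with a range of at least 1 log2 unit became 2 with every probe set averaged or with no limit on the range, where Spry4 was lost, and ran from 2 to 3 when each clone was left out. The count set at least 1 log2 unit apart from all other clones, 1 with all of them, ran from 0 without clone 11B to 2 without clone 1D, where Spry4 joined Dusp6. No other alternative moved either count, and the median deviations in each clone moved by less than the spread of a probe set. The range of Spry4 was 0.36 with every probe set averaged and 0.73 with no limit on the range, and that of Spred1 was 0.87 with its probe set of highest mean. Under quantile normalization the ranges of Dusp6, Spry4 and Dusp1 were 3.52, 1.47 and 1.10. No paired analysis was possible because each clone had 1 array. Signals over background could not be judged from ratios.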
